A study of Mus musculus with 6 samples.

Results

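The follicular helper program was followed through 9 genes: the transcriptional regulators Bcl6, Ascl2, Tox2 and Pou2af1, the cytokines Il21 and Il4, the surface molecules Icos and Cd200, and the secreted protein gene Sostdc1. They were taken by name, and earlier results of these data were known when they were chosen. Every probe set that the array's annotation assigns to exactly 1 gene was used when that gene was one of the 9, which gave 17 probe sets of 34945 and 9 genes of 18193. Expression was measured on Affymetrix microarrays in memory phenotype CD4+ T cells from female C57BL/6 mice aged 8 to 10 weeks with MOG35-55-induced EAE. Experimental autoimmune encephalomyelitis (EAE) is an immune attack on myelin, and both tissues came from animals in its acute clinical phase. Spinal cord, the inflamed target tissue, gave 3 arrays, and the draining inguinal lymph node gave 3. All 6 arrays therefore come from immunised, sick mice, and no array of healthy or unimmunised mice was used here. The labels name neither the markers that define memory phenotype nor the number of animals behind an array.

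Follicular helper T cells are the CD4+ T cells that enter B cell follicles and help B cells to form germinal centres and switch antibody class. Bcl6 is their lineage-defining repressor. It and the receptor Cxcr5 mark the lineage, while IL-21, IL-4 and the costimulatory receptor ICOS carry out or sustain the help. Effector T cells that leave the node for an inflamed tissue are classically described as relying on the opposing factor Blimp-1, encoded by Prdm1.

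The promoters of 3 genes whose RNA was lower in the spinal cord samples are shown first: both cytokine genes and Pou2af1, the regulator with the largest fall. RefSeq sequences of build GRCm38.p6 were matched for 7 of the 9 genes, in 13 windows since some genes have several starts. Each sequence is the 250 bases before the annotated start, read 5′ to 3′ on the gene's own strand. Capitals mark GGAAAA, a core that NFAT factors are known to bind, and TGCTGA, a site that MAF factors are known to bind, on either strand, so that they read TTTTCC and TCAGCA where the match is on the opposite strand. No marked site overlaps another. The Il4 window is that of the more distal of its annotated starts. The window of its other start held neither GGAAAA nor TGCTGA. These are letter matches, not sites shown to be in use.
Il4, chr11:53618666-53618915, minus strand: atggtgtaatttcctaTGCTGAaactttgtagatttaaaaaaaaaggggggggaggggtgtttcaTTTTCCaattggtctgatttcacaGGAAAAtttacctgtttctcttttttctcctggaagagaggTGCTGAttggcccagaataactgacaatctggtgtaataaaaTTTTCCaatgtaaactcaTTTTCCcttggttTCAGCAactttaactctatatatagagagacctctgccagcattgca
Il21, chr3:37232637-37232886, minus strand: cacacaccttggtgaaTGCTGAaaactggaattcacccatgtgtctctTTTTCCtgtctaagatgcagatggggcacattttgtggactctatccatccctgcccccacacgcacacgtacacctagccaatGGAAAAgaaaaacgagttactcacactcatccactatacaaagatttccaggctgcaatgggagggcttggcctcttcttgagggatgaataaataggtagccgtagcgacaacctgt
Pou2af1, chr9:51213440-51213689, plus strand: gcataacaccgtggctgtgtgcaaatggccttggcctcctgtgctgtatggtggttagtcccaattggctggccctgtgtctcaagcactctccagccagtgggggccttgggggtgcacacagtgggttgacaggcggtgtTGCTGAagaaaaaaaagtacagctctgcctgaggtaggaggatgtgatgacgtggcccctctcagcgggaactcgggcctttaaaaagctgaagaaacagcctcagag
The Il4 window held GGAAAA 4 times and TGCTGA 3 times. Of 32851 promoter windows of the same length, 0.0396% held GGAAAA at least 4 times and 0.146% held TGCTGA at least 3 times. The Il21 window held GGAAAA 2 times and TGCTGA 1 time, and 2.85% of windows held the first at least 2 times. The Pou2af1 window held TGCTGA 1 time, and 16.1% of windows held it at least 1 time. GGAAAA was not in it. The octamer ATTTGCAT, through which the Pou2af1 protein is known to act with its Oct partners, was searched on both strands and lay in 1.60% of all windows. It was not in any of the 13 windows of these genes. GGAAAA was in 5 of the 13 and TGCTGA in 3 of the 13, beside 20.4% and 16.1% of all windows. Of the 5, 2 are Tox2 windows that start 1 base apart and hold the same match. The rest are windows of Il4, Il21 and Bcl6. The Bcl6 window held GGAAAA 2 times, as the Il21 window did, though Bcl6 was not called. The window of Cd200, which was called lower, held neither GGAAAA nor TGCTGA.
In all 12 patterns were searched on both strands, and these 3 were kept after their matches in these windows had been seen. How rare the Il4 counts are is therefore a description of a chosen pattern, in the Il4 window that held matches. The other 9 were the shorter octamer core ATGCAAA, the E-box CAGCTG, the E-box written CACCTG, the TATA box TATAAA, the TCF core CTTTGA, the BCL6 site TTCCTAGAA, the STAT site TTCNNNGAA, its shorter form TTCNNGAA counted together with it, and the AP-1 site TGACTCA counted together with its other form TGAGTCA, where N is any base. They lay in 0 to 3 of the 13 windows and in 0.347% to 17.2% of all windows. Several overlap one another in their letters.

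Of the 9 follicular helper genes, 5 fell in spinal cord T cells: Pou2af1, Sostdc1, Il4, Cd200 and Il21, by 4.65-fold to 32.0-fold. None rose, and Bcl6 itself and Icos were not called. Genes were called by limma at a Benjamini-Hochberg adjusted p below 0.05 over all genes, and 1.41% of all genes were called lower in spinal cord and 1.13% were called higher. At an unadjusted p below 0.05, 7 of the 9 were lower and 0 were higher, beside 8.89% of all genes lower and 5.39% higher. The median log2 change of the 9 was -2.22, beside 0.0019 over all genes. In 7 of the 9 the spinal cord arrays all lay below the lymph node arrays, which 9.68% of all genes did. Since the 9 were chosen with earlier results of these data known, these shares describe the set and do not test it. With 3 arrays against 3 the exact two-sided permutation test cannot go below p = 0.1, and those 7 genes had that value. Every change is given as spinal cord minus lymph node on the log2 scale with its standard error (SE). In bulk samples such as these, fewer cells of a type and less RNA per cell cannot be told apart.

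**Figure D1:**
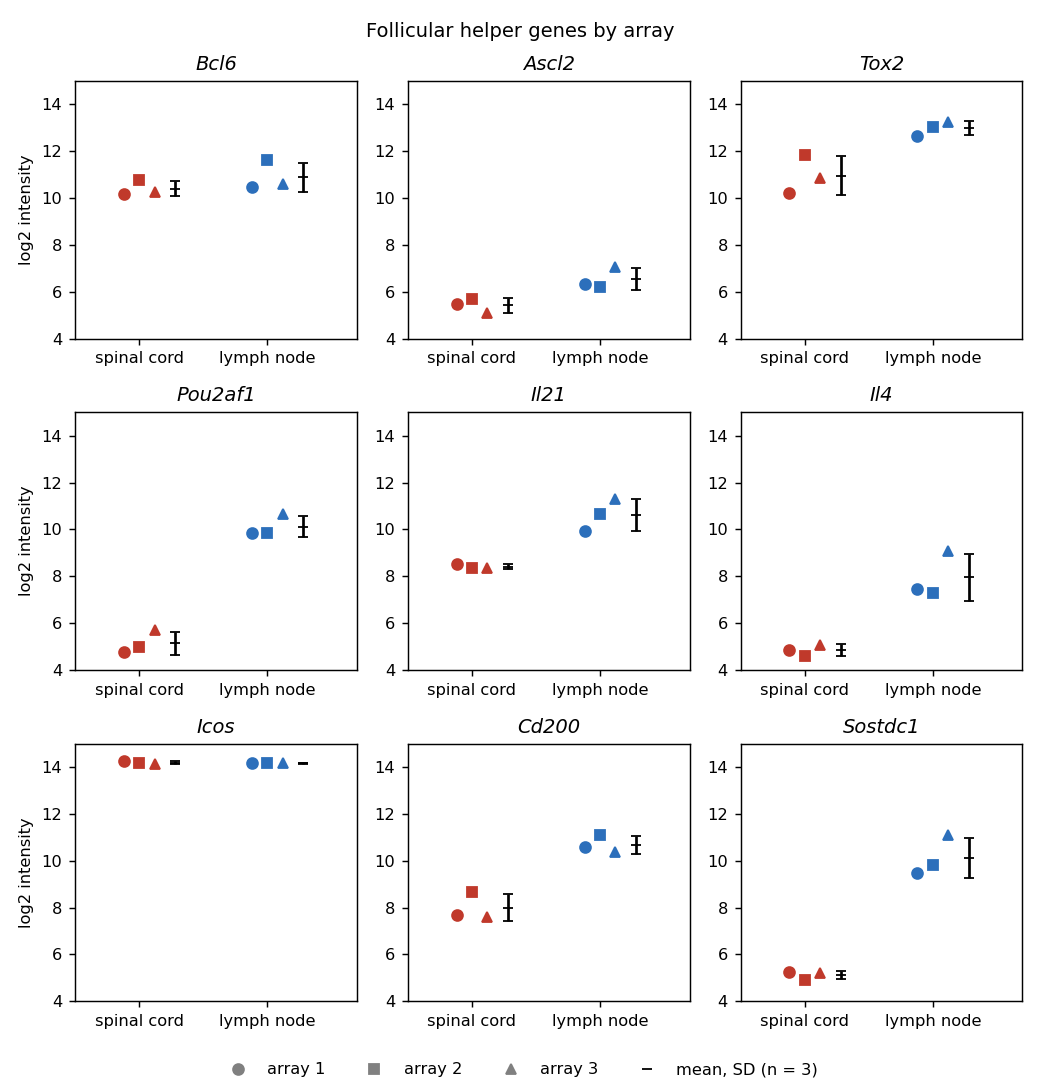
Log2 intensity of the 9 follicular helper genes on each array, 1 panel a gene, with spinal cord arrays in red on the left and lymph node arrays in blue on the right; marker shape gives the array number and the black bar the mean with its SD (n = 3). Pou2af1 and Sostdc1 lie furthest apart between tissues, while the tissues overlap for Bcl6 and Icos.

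Bcl6, the repressor that defines the lineage, was present in both tissues. It read 1150, 1738 and 1221 intensity units in spinal cord arrays 1, 2 and 3, against 1410, 3131 and 1573 in lymph node arrays 1, 2 and 3. The tissues overlapped, since spinal cord array 2 was above lymph node arrays 1 and 3, and array 2 was the highest in each tissue. The log2 change was -0.50 ± 0.34 SE with a 95% interval of -1.33 to 0.33 (limma adjusted p = 0.606), so neither no change nor a fall of more than 2-fold lay outside the interval. Between arrays of the same number the difference was -0.29, -0.85 and -0.37. Without lymph node array 2 the log2 change was -0.15. On that array the 5′ actin control probe set lay furthest below the 3′ one, by a log2 difference of -3.50 against -2.30 to -0.82 on the other 5 arrays, a measure of RNA quality whose part in the values of Bcl6 and Cd200 was not tested. A second, dimmer Bcl6 probe set read 98, 88 and 67 in spinal cord, against 116, 66 and 84 in lymph node, and its change was -0.05 ± 0.25.

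Ascl2 and Tox2 are the other regulators placed at the start of the program. Ascl2, a basic helix-loop-helix factor known to induce Cxcr5 in mouse T cells, read 45, 52 and 34 in spinal cord, against 82, 75 and 134 in lymph node. The tissues did not overlap, but both lay low on the array, whose values have a median of 71 and a 20th percentile of 25. The log2 change of -1.12 ± 0.27 was not called (limma adjusted p = 0.119). Its other probe sets had changes of -1.26 ± 0.35 (limma adjusted p = 0.192 over probe sets, and 0.0426 with the array number as a block) and -0.52 ± 0.31. The former read 14, 13 and 16 in spinal cord, below the 20th percentile of 25, against 22, 32 and 57 in lymph node. The latter read 12 to 31 on all 6 arrays.

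Tox2, an HMG-box factor known to work with Bcl6, read 1186, 3630 and 1866 in spinal cord, against 6530, 8357 and 9768 in lymph node. Each spinal cord array was below each lymph node array, and spinal cord array 2 stood closest to the lymph node values. The log2 change of -2.02 ± 0.41 missed the threshold (limma adjusted p = 0.0764). With the array number as a block it was called (adjusted p = 0.0112), as were 6 of the 9 genes in all, where 7.45% of all genes were called lower and 3.67% higher. The 6 were Tox2 and the 5 called without the block. A second Tox2 probe set read 36 to 45 in spinal cord, against 38 to 40 in lymph node and did not share the pattern (0.07 ± 0.12).

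Pou2af1, which encodes a transcriptional coactivator known from B cells and also used by follicular helper T cells, had 1 probe set and was near the low end of the scale in spinal cord. It read 27, 32 and 52 in spinal cord arrays 1, 2 and 3, against 932, 916 and 1614 in the lymph node arrays. The lowest lymph node array was 17.6-fold above the highest spinal cord array. The log2 change was -4.97 ± 0.33, a 31.3-fold lower level in spinal cord (limma adjusted p = 0.00412), and the call held whichever array was left out (adjusted p 0.0113 to 0.0384). Array 3 was the highest in each tissue, and the difference between arrays of the same number was -5.11, -4.84 and -4.96. Spinal cord values this close to the 20th percentile of 25 carry a background that was not measured apart, so the size of the fold is less certain than its direction.

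Il21, the cytokine that acts on germinal centre B cells and on the T cells themselves, fell 4.65-fold. It read 367, 330 and 324 in spinal cord, a spread of 1.13-fold, against 968, 1623 and 2516 in lymph node, a spread of 2.60-fold. The spinal cord arrays were alike and well above the low end of the array, while lymph node array 3 was the highest and array 1 the lowest. Its change was -2.22 ± 0.34 on the log2 scale (limma adjusted p = 0.0332), and it was -1.40, -2.30 and -2.96 between arrays 1, 2 and 3. The call held in 2 of the 6 fits that left out 1 array (highest adjusted p 0.145). A second Il21 probe set was dim, with 30, 28 and 38 in spinal cord against 52, 70 and 117 in lymph node. It had the same direction (-1.25 ± 0.31) without passing the test over probe sets (adjusted p = 0.157), and passed with the block (adjusted p = 0.0238).

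Il4, the class-switching cytokine that follicular helper cells share with type 2 helper cells, fell 8.60-fold. Its intensities were 29, 24 and 34 in spinal cord, against 176, 157 and 545 in lymph node. All spinal cord values lay near the 20th percentile, and lymph node array 3 was above the other lymph node arrays, with a spread of 3.47-fold among them. On the log2 scale the change was -3.10 ± 0.49 (limma adjusted p = 0.0359), and -2.53 without lymph node array 3. It was called in 1 of the 6 fits without 1 array, the fit without lymph node array 3, and the highest adjusted p was 0.144.

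Icos, the costimulatory receptor that sustains Bcl6 and cell movement into the follicle, overlapped between the tissues, with a narrow interval around no change. Its brightest probe set read 19329, 18654 and 17637 in spinal cord, against 18603, 18210 and 18148 in lymph node. Its change was 0.02 ± 0.10 on the log2 scale, with a 95% interval of -0.23 to 0.26 (limma adjusted p = 0.966). These values stand near the top of the array, whose highest value was 39505, and the response of a probe set this bright was not tested. The other Icos probe sets were less bright and varied by array number rather than by tissue. One read 8779, 9913 and 3995 in spinal cord, against 8652, 8769 and 4126 in lymph node. The last read 4713, 1983 and 924 in spinal cord against 5087, 2203 and 623 in lymph node. Their log2 changes were 0.05 ± 0.45 and 0.10 ± 0.91, so the dimmest of them bounds the change only between -2.12 and 2.32.

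Cd200, a surface glycoprotein that restrains cells bearing its receptor, fell 6.44-fold. It read 208, 406 and 196 in spinal cord against 1552, 2183 and 1304 in lymph node. Array 2 was the highest in each tissue, and no spinal cord array reached the lymph node range. The log2 change was -2.69 ± 0.34 (limma adjusted p = 0.0180), with differences of -2.90, -2.43 and -2.73 between arrays of the same number. The call held in 2 of the 6 fits without 1 array (highest adjusted p 0.0870).

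Sostdc1 encodes a secreted antagonist of BMP and WNT signals and is known in mice from a subset of follicular helper cells. It read 38, 30 and 37 in spinal cord, against 709, 891 and 2183 in lymph node. The spinal cord arrays lay near the low end of the array, and lymph node array 3 was the highest. The log2 change was -5.00 ± 0.42, or 32.0-fold lower in spinal cord (limma adjusted p = 0.00753), and the call held without each array in turn (highest adjusted p 0.0495). A second probe set had 40, 34 and 28 in spinal cord against 248, 162 and 417 in lymph node and was also called (-2.93 ± 0.36, adjusted p = 0.0218 over probe sets).

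Over all 17 probe sets, 6 were called lower and 0 higher by limma adjusted over probe sets, where 0.784% of all probe sets were called lower and 0.701% higher. In 13 the change was below 0, and in 10 the spinal cord arrays all lay below the lymph node arrays, beside 8.45% of all probe sets. With the array number as a block 9 were called lower, where 4.71% of all probe sets were called lower and 2.94% higher. The genes with more than 1 probe set numbered 6. For Sostdc1 and Il21 the dimmer probe set gave a smaller change of the same sign, and for Tox2 it gave 0.07 against -2.02.

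**Figure D2:**
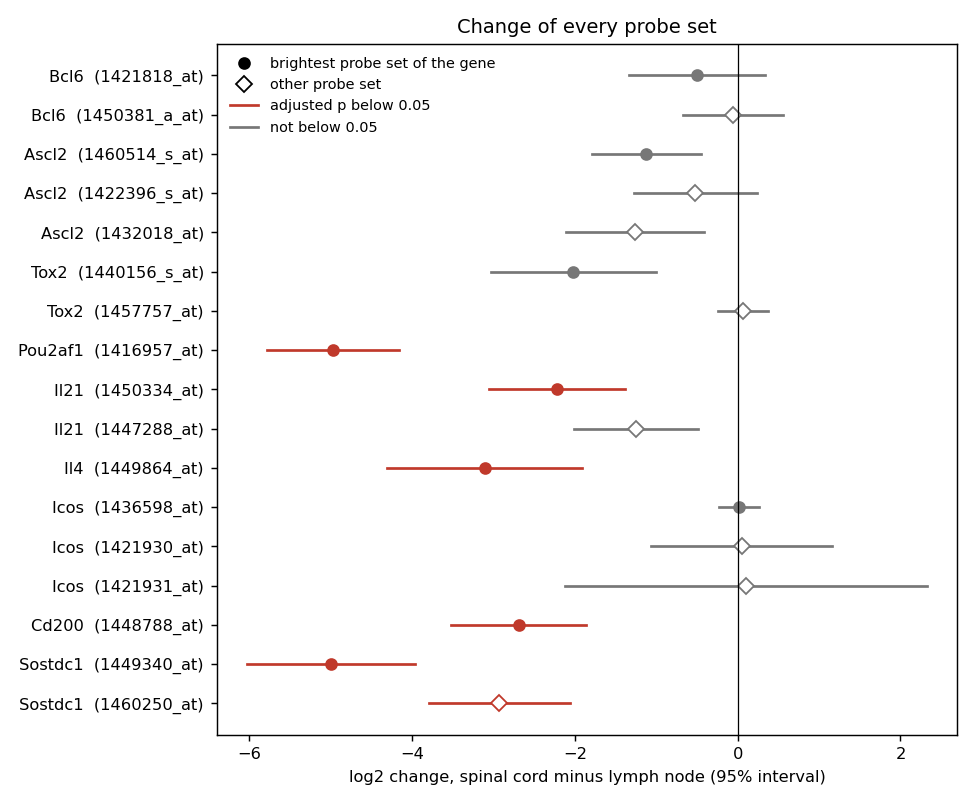
Log2 change (spinal cord minus lymph node) of all 17 probe sets of the 9 genes with 95% intervals; filled circles are each gene's brightest probe set, open diamonds the others, and red marks an adjusted p below 0.05 over all probe sets. The 6 red probe sets lie between -5.00 and -2.22, and the 3 Icos probe sets lie at 0.02 to 0.10.

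The genes did not all follow the same array within the lymph node. Array 3 was the highest lymph node array for Pou2af1, Il21, Il4, Sostdc1, Ascl2 and Tox2, which is 6 of the 9, and array 2 was the highest for Bcl6 and Cd200. Over all genes array 3 was the highest lymph node array for 29.1%, and over the 257 genes called lower it was for 32.3%. Array 1 was the highest for Icos alone among the 9, and for 45.0% of all genes. The 5′ minus 3′ actin log2 difference was -1.90, -2.30 and -1.30 on spinal cord arrays 1, 2 and 3. On lymph node arrays 1, 2 and 3 it was -1.05, -3.50 and -0.82. In each tissue it was thus highest on array 3 and lowest on array 2, and its part in these orders was not tested.

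Cell type markers were compared beside these values. The 8 measured T cell markers, Cd3e, Cd3d, Cd3g, Cd4, Cd2, Cd5, Cd6 and Cd28, read 1358 to 11680 in spinal cord, against 1248 to 14440 in lymph node. By limma 0 of the 8 were called, and 0 had an unadjusted p below 0.05. Their summed intensity was 38709 to 44877 in spinal cord, against 37599 to 51484 in lymph node. Both tissues therefore carried the T cell markers at overlapping levels.

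B cells express Pou2af1 strongly, so their markers were read on the same arrays. Of 13 measured B cell markers only Cd22 was called, and it fell: 108, 98 and 116 in spinal cord against 620, 679 and 750 in lymph node (-2.67 ± 0.13, limma adjusted p = 0.00171). Cd79b read 43, 29 and 39 in spinal cord, against 117, 79 and 57 in lymph node (-1.15 ± 0.29, adjusted p = 0.134; adjusted p = 0.0267 with the block). The other 11, Cd79a, Ms4a1, Pax5, Blk, Blnk, Ebf1, Cr2, Fcer2a, Fcrla, Bank1 and Spib, read 21 to 74 in spinal cord, against 22 to 76 in lymph node, close to the array median of 71 or below it. Among them Bank1 read 46, 52 and 50 in spinal cord, against 72, 60 and 76 in lymph node (-0.49 ± 0.13, limma adjusted p = 0.161). Blnk and Fcrla did not overlap either and were higher in spinal cord. At an unadjusted limma p below 0.05, 3 of the 13 were lower and 0 higher, beside 8.89% of all genes lower and 5.39% higher. The summed B cell list was 582 to 610 in spinal cord, against 1156 to 1236 in lymph node. Without Cd22 the sums were 480 to 502 in spinal cord, against 477 to 614 in lymph node. The highest lymph node array was number 3 for Pou2af1, and also for Cd22, Bank1, Ebf1 and Fcer2a, while it was number 1 for the other 9 B cell markers.

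**Figure D3:**
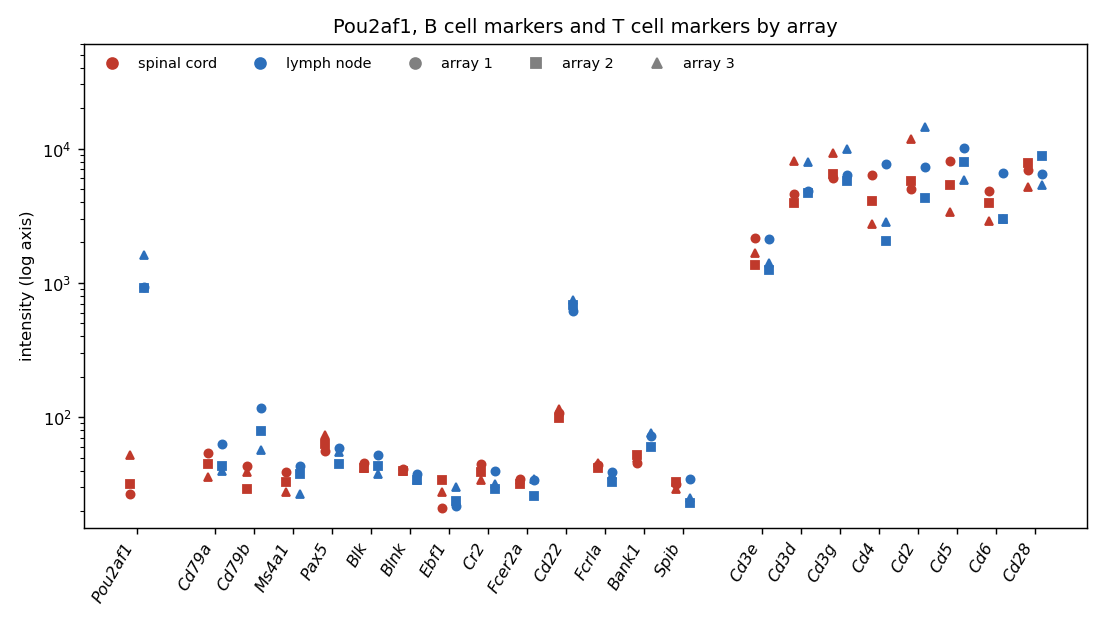
Intensity on a log axis of Pou2af1 (left), 13 B cell markers (centre) and 8 T cell markers (right) on each array, with spinal cord in red and lymph node in blue beside it and marker shapes for array numbers. In lymph node Pou2af1 reads 916 to 1614, while 11 of the B cell markers stay at 76 or below. The other B cell markers are higher there than in spinal cord, with Cd22 at 620 to 750 and Cd79b at 57 to 117 in lymph node. The T cell markers overlap between tissues.

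Markers of cells that could supply the other genes were summed in the same way. Basophil and mast cell markers, listed because such cells make IL-4, summed to 313 to 381 in spinal cord, against 322 to 353 in lymph node over 6 genes. Follicular dendritic and stromal cell markers summed to 320 to 330 in spinal cord, against 281 to 327 in lymph node over 7 genes, and plasma cell markers to 210 to 243 in spinal cord, against 193 to 296 in lymph node over 4. Endothelial markers, listed because such cells carry CD200, summed to 315 to 397 in spinal cord, against 272 to 541 in lymph node over 5 genes. By limma 0 genes of these 4 lists were called, and at an unadjusted p below 0.05 there was 1 in the basophil list and 1 in the stromal list, both higher in spinal cord. Macrophage, monocyte and microglia markers were higher in spinal cord in value, with all 13 changes above 0, a median of 1.73 and sums of 1341 to 5508 in spinal cord, against 675 to 757 in lymph node. None of those 13 was called by limma, 11 had an unadjusted p below 0.05, and 7 were called with the block. The part of any of these cells in the results was not tested. Called markers of the remaining lists were Itgax, Siglecf, Klrd1 and Klrk1, higher in spinal cord by 2.53-fold to 3.80-fold, and among regulatory T cell markers Ikzf2 and Izumo1r, which fell, and Il2ra, which rose. The other markers of those lists, Zbtb46, Flt3, Xcr1, Siglech, Epx, Prg2, Cd8a, Cd8b1, Ncr1, Eomes, Foxp3, Ctla4 and Tnfrsf18, were not called. Of these Eomes (-1.73 ± 1.00, limma adjusted p = 0.534) was called with the block (adjusted p = 0.00898), as was Ctla4. Foxp3, which defines regulatory T cells, had a change of -0.91 ± 0.66 and overlapped between the tissues (limma adjusted p = 0.640). Neural and glial markers had 0 calls of 8, with sums of 3741 to 6322 in spinal cord, against 4100 to 6440 in lymph node. Most of that was Mbp, and without it the sums were 341 to 356 in spinal cord, against 286 to 330 in lymph node.

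Other genes of the follicular helper pathway were read in 4 lists. Of the 7 receptors that position T cells within a node, Cxcr5 and Ccr7 fell and 5 were not called, with a median of 0.060. Cxcr5, which follows the follicle chemokine CXCL13, read 50, 39 and 74 in spinal cord, against 2118, 2497 and 3016 in lymph node. No array of one tissue came near the other, and the change was -5.58 ± 0.27 (limma adjusted p = 0.00171). Ccr7, which holds T cells in the T zone and opposes entry into the follicle, also fell (-2.92 ± 0.49). Its call held in 1 of the 6 fits without 1 array. The germinal centre retention receptor gene S1pr2 had a change of 0.06 ± 0.14.

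Among 10 measured regulators linked to the program, Id3 and Tox fell and 8 were not called, with a median of -0.68. This list does not separate factors that favour the program from factors that restrain it. Id3, an inhibitor of E proteins, read 58, 39 and 122 in spinal cord, against 1237, 871 and 1361 in lymph node (-4.13 ± 0.43, limma adjusted p = 0.0109). Tox, a relative of Tox2, read 100, 102 and 157 in spinal cord, against 594, 848 and 805 in lymph node (-2.66 ± 0.24). Each lost its call without 1 array (highest adjusted p 0.0520 and 0.0516). Maf, a factor known to drive Il21 and Il4, read 4103, 4796 and 2584 in spinal cord, against 5084, 8608 and 5639 in lymph node, and its change of -0.76 ± 0.30 missed the threshold (adjusted p = 0.335). Of the regulators, 5 were called lower with the block.

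Among 9 antagonists of the program Tbx21 and Il2ra rose and 7 were not called, with a median of -0.03. Tbx21, the type 1 helper factor, read 1688, 1826 and 1477 in spinal cord, against 384, 427 and 372 in lymph node (2.07 ± 0.13, limma adjusted p = 0.00365). Il2ra, whose signals through Stat5 repress Bcl6, read 1483, 1699 and 1377 in spinal cord, against 484, 321 and 245 in lymph node (2.17 ± 0.26). Its call held in 2 of the 6 fits without 1 array (highest adjusted p 0.0900). Prdm1, which encodes Blimp-1 and is mutually repressive with Bcl6, read 633, 757 and 1358 in spinal cord, against 360, 344 and 453 in lymph node. The tissues did not overlap, and the change of 1.18 ± 0.30 was called with the block only (adjusted p = 0.133; 0.0143 with the block). In that fit 3 antagonists were higher and 2 lower.

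Of 14 genes of surface molecules and help signals, 4 fell, 1 rose and 9 were not called, with a median of -1.03. Il6st, the shared chain of the interleukin-6 receptor, read 166, 292 and 270 in spinal cord, against 4588, 3440 and 2920 in lymph node (-3.93 ± 0.27, limma adjusted p = 0.00482). The inhibitory receptor gene Btla fell (-2.89 ± 0.26), and so did the adhesion receptor gene Slamf6 (-2.75 ± 0.28) and Sh2d1a, which encodes the adaptor SAP (-1.76 ± 0.29). Of the 6 fits without 1 array, Btla was called in 5 (highest limma adjusted p 0.0501), Slamf6 in 4 (0.0543) and Sh2d1a in 1 (0.158). Slamf1 rose (1.28 ± 0.21), but 0 of the 6 fits without 1 array called it. Pdcd1, which encodes the PD-1 receptor abundant on follicular helper cells, overlapped between tissues, with 1653, 787 and 856 in spinal cord, against 1564, 1549 and 2704 in lymph node (-0.85 ± 0.36, adjusted p = 0.367). Of the receptor relatives of Icos, Btla fell, while Cd28 had a change of -0.04 ± 0.24 and Ctla4 one of 1.51 ± 0.29 (adjusted p = 0.0649; 0.00937 with the block).

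**Figure D4:**
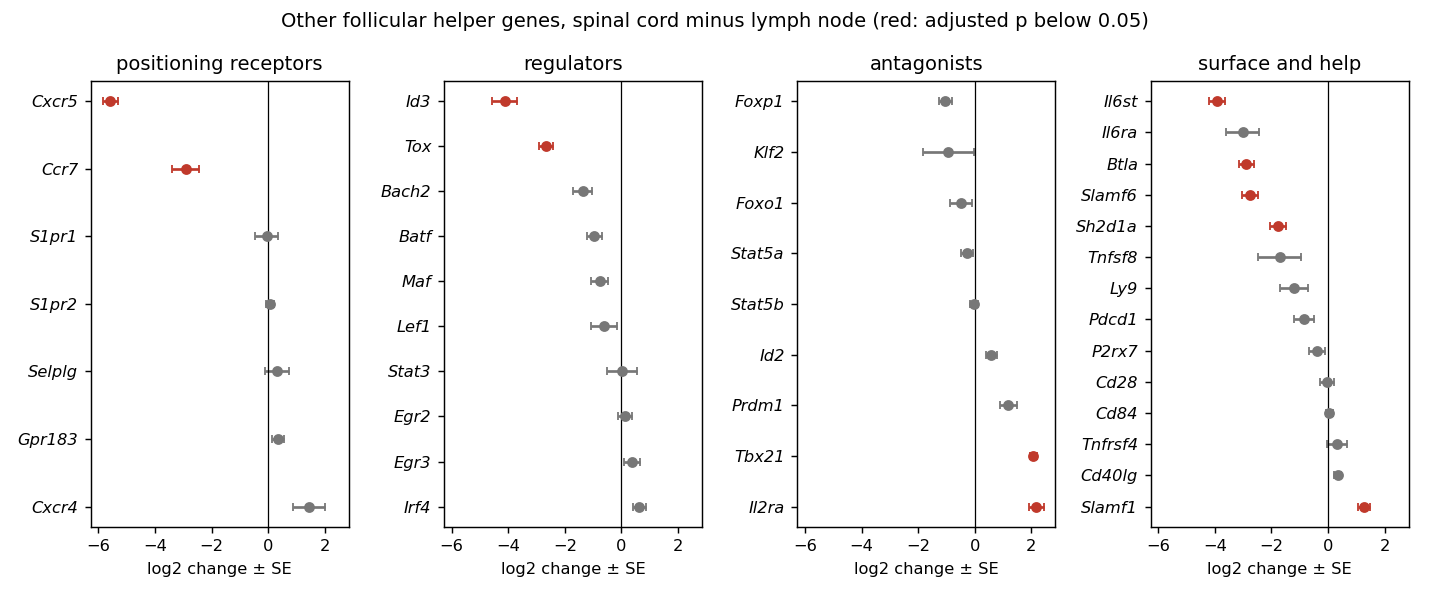
Log2 change (spinal cord minus lymph node) with SE for each measured gene of 4 lists of the follicular helper pathway, sorted within a list, red where the limma adjusted p was below 0.05. Cxcr5 has the lowest value at -5.58 and Il2ra the highest at 2.17.

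Receptors, ligands and protein partners of the 9 genes' products did not pass the test. Of 16 measured partners 0 were called by limma, and the median was -0.02. At an unadjusted limma p below 0.05, 1 was lower and 2 were higher, beside 8.89% of all genes lower and 5.39% higher. Bcor, a corepressor of Bcl6, read 940, 763 and 874 in spinal cord, against 1136, 1220 and 1055 in lymph node (-0.41 ± 0.13, adjusted p = 0.217). Icosl, the ligand of ICOS, read 566, 361 and 337 in spinal cord, against 348, 180 and 215 in lymph node (0.78 ± 0.31, adjusted p = 0.336; 0.0182 with the block). The receptor genes Il21r and Il4ra had changes of -0.05 ± 0.25 and 0.01 ± 0.50, and the CD200 receptor gene Cd200r1 one of 0.44 ± 0.22.

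Likeness to each leading gene was read as Pearson's r of log2 values over the 6 arrays, among 5560 genes above the 40th percentile of mean level that varied by at least 1 on the log2 scale. The 6 arrays share a split into tissues, so a high r follows for any gene with a clear tissue difference, and no test is given. Most like Pou2af1 were Arhgap6, Gna14, Gstk1, Cxcr5 and Ttc3 (r = 0.995 to 0.997), and 125 genes had r above 0.95. Ascl2 and Icos were not among the genes compared. Of the rest of the 9, Sostdc1 came closest to Pou2af1 (r = 0.989), ahead of Il4 (0.967) and Il21 (0.954). Most like Il21 were Ccdc28b, Zkscan8, Zfx, Gpm6b and D130051D11Rik (r = 0.991 to 0.995). Most like Bcl6 were Fam174a, Ndc80, Slc15a2, Cep70 and Numb (r = 0.985 to 0.993), all highest in lymph node array 2. The r of Bcl6 was 0.702 with Cd200, 0.531 with Il21 and 0.482 with Pou2af1.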

How the data were processed

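The labels' protocols name an RNeasy kit for the RNA and a 3′ amplification in a pair of cycles that made biotin-labelled cRNA. Per the submitters' processing notes the authors used RMA, and what they deposited for 45101 probe sets is intensity, linear and in whole numbers between 9 and 39505. The version of RMA, the genome build and the annotation are not given in the sources used here. Array medians were 68 to 71. Each tissue had only 3 arrays, each with an RNA input of 1 ng, and what limits the precision was not tested. No array was a copy of another, since at least 93.5% of probe sets differed between any pair. Whether arrays came from separate animals is not stated, and the spread behind each p-value may therefore be technical.

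Log2 was taken of the deposited intensities. Of the probe sets 34945 had 1 symbol in the platform annotation, 932 had several, 9160 had none and 64 were controls; 34741 matched the RefSeq table of GRCm38.p6, and 0 symbols changed. Each of 18193 genes took its brightest probe set. Tests used limma 3.58.1 in R 4.3.3 with a single term for tissue, two-sided, and Benjamini-Hochberg adjustment over all genes, or over all probe sets with 1 symbol. Python 3.11.15, pandas 2.3.3, numpy 2.4.6, scipy 1.17.1 and matplotlib 3.10.9 handled tables and figures. The fits were tested on simulated data with known changes. Without effects shared by array number, the fit with tissue alone recovered 24% of log2 changes of 1, 76% of 2 and 100% of 4. With such effects it recovered 40%, 70% and 98%. False calls numbered 5 and 0. A gene that was not called may therefore still differ.

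The titles number arrays 1 to 3 in each tissue. Deviations from tissue means, over genes, correlated at 0.576, 0.509 and 0.777 for arrays sharing a number and at -0.569 to 0.00506 otherwise, so the array number is used as a block and given where it changes a named call, beside the fit without it. That pairing rests on the data, not the labels, and centring builds in part of the contrast. The 5′ minus 3′ actin difference had the same order of array numbers in both tissues, and its part in these correlations was not tested.

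The 9 genes and all lists were chosen with earlier results of these data known, and no p is adjusted over a list. The naming rule gave the 9 genes, up to 4 called members of each list or the 2 of lowest adjusted p where none was called, the B cell markers, the markers of other lists that held a call and the 5 genes most like each of Bcl6, Il21 and Pou2af1. Outside it, S1pr2, Maf, Prdm1, Sh2d1a, Pdcd1, Cd28, Ctla4, Il21r, Il4ra and Cd200r1 were named after their values were seen, and the 3 promoter motifs were kept from 12 searched after their matches were seen. Listed genes without a probe set of 1 symbol, such as Tcf7, were not analysed here. The alternatives tried were leaving out each array, a replicate block, leaving out dim genes, median centring, quantile normalization, a variance trend, array weights, an offset of 16, a floor at the 20th percentile, other choices of probe set and stricter thresholds.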

Additional observations from a re-analysis of the deposited data

How the results depend on the processing

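In the fits over genes Pou2af1 and Sostdc1 kept their calls under every alternative run, and Bcl6, Ascl2 and Icos stayed uncalled; Ascl2 was not tested with dim genes left out, since it is one of them. The count of 9 genes called lower, 5 in the fit with tissue alone, was 3 with an offset of 16, 2 with a floor at the 20th percentile, 2 at an adjusted p below 0.01, 6 with the replicate block and 2 to 5 without single arrays (5 when lymph node array 3 was left out, 3 for lymph node array 1 or spinal cord array 2, and 2 for each of the other arrays). The count higher stayed at 0. Of the 17 probe sets, 6 were called lower, and 0 to 4 without single arrays (0 without spinal cord array 2, so that the probe sets of Pou2af1 and Sostdc1 lost their calls there, and 4 without lymph node array 3).

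Il21 lost its call with the offset (-2.17, adjusted p = 0.0505), the floor (-2.22, 0.101) and the mean of probe sets (-1.73, 0.0526). Il4 lost it with the offset (-2.56, 0.0720) and the floor (-3.08, 0.109), and Cd200 with the floor (-2.69, 0.0731). Tox2 (-2.02) passed with the replicate block, with dim genes left out (adjusted p = 0.0426) and with a variance trend (0.0377). Why was not tested. Over the fits without single arrays the log2 change was -2.57 to -1.88 for Il21, -3.43 to -2.53 for Il4, -3.02 to -2.48 for Cd200, -2.45 to -1.64 for Tox2, -5.24 to -4.70 for Pou2af1, -5.32 to -4.51 for Sostdc1, -1.29 to -0.87 for Ascl2 and -0.72 to -0.15 for Bcl6. Icos, near 0, changed sign with median centring (-0.0045) and without spinal cord array 1 (-0.014), with a highest value of 0.052 among the fits without single arrays.

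Over all genes the replicate block called 1355 lower and 668 higher, the floor 84 and 77, and fits without single arrays 32 to 190 lower and 49 to 136 higher. With the block the regulator list had 5 lower, the surface list 7, the antagonists 2, and 1 gene more was called higher in each of the positioning (1), partner (1) and Icos relative (1) lists. Without single arrays the counts lower were 1 to 2 for positioning receptors, 1 to 3 for regulators, 1 to 4 for surface genes and 0 to 1 for Icos relatives, and the counts higher were 1 to 2 for antagonists and 0 for surface genes. By Spearman's rho the 5 genes most like each leading gene had rho of at least 0.943 with Bcl6, 0.771 with Il21 and 0.886 with Pou2af1. The replicate block changed no other call of the 9 genes.

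A level near the low end of the array, as for Pou2af1, Sostdc1 and Il4 in spinal cord, limits how well a fold is known, and without detection calls background could not be judged array by array.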
